A study of Mus musculus with 9 samples.

Results

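The Notch receptors, ligands and targets measured here are 10 genes, Notch1, Notch2, Notch3, Notch4, Jag1, Jag2, Dll1, Hes1, Hey1 and Rbpj. They were taken by symbol, with every probe annotated to them, which gave 14 of the 45281 probes of the array and 10 of its 19057 named genes. Hormone-receptor positive (HR+) luminal cells, the mammary cells that carry the receptors for oestrogen and progesterone, were sorted from 9 FVB female mice of 9 to 11 weeks of age. Of these, 3 were virgin and in metestrus, 3 were at day 3 of a timed pregnancy and 3 at day 7, with no genetic change named for any group, and all animals, the virgin controls included, had received EdU at 2 mg/g 24 hours before harvest. The study's methods give 9 to 11 weeks for the pregnant mice at mating and 11 weeks for virgin controls at EdU injection. Each animal gave 1 Illumina bead array, made from the RNA of 167 out of 1000 cells. The study used chips that hold fewer than 9 arrays, and its methods do not say which chip held which array. A difference between chips could therefore not be checked. The sort left out dead, stromal and CD45+ cells, a gate that removes lymphocytes and macrophages, and then took luminal cells by CD24 and CD49f and HR+ cells by Sca1 and CD49b. Precision is limited by how few arrays there were. In sorted cells measured in bulk, a lower signal from fewer cells of a type and from less RNA per cell cannot be told apart.

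Notch signalling passes between touching cells. A ligand of the Jagged or Delta-like family on the surface of a cell binds a Notch receptor on its neighbour, proteases of the ADAM family and then the gamma-secretase complex cut the receptor, and its freed inner part enters the nucleus. There it joins the DNA-binding protein RBPJ and a Mastermind coactivator, and genes such as Hes1 and Hey1, which encode basic helix-loop-helix repressors, are switched on. In the mouse mammary gland the pathway is known for its part in the luminal fate of epithelial cells.

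RBPJ is known to bind the core letters TGGGAA, and RefSeq promoter windows on the GRCm38.p6 assembly (250 bases before to 50 bases after a start site) were searched for this core on both strands, the opposite strand reading TTCCCA. Of 32851 windows of this length, 25.6% held it. This is a share of windows, and a gene can have more than 1, so counts of genes cannot be set beside it. Of the 10 members, 8 had a window. Hes1 and Hey1 were not matched. Among these 8 the core was found in 1 gene, Rbpj itself, in 2 overlapping windows of the 10 member windows. Of the 8 other pathway genes that were called in these data, 6 had a window and 2 held the core, Maml2 and Cdkn1a, each in 1 of 2 windows. These 3 windows are shown since they place the core beside a start site of the DNA-binding factor, of its coactivator and of a target, with the core in capitals. A match is a description of the letters and not a binding site. The Rbpj window is chr5:53590096-53590395 on the plus strand, and the first bases of its cores lie at -149 and, on the opposite strand, -65 from the start site. The Maml2 window is chr9:13662210-13662509 on the plus strand, with an opposite-strand core at -145, and the Cdkn1a window is chr17:29093519-29093818 on the plus strand, with an opposite-strand core at -117.
Rbpj: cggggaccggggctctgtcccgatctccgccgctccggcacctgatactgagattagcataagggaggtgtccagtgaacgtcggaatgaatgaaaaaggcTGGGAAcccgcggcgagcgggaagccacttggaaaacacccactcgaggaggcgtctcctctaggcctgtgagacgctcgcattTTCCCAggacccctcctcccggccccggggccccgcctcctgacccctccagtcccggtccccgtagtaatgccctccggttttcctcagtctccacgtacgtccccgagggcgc
Maml2: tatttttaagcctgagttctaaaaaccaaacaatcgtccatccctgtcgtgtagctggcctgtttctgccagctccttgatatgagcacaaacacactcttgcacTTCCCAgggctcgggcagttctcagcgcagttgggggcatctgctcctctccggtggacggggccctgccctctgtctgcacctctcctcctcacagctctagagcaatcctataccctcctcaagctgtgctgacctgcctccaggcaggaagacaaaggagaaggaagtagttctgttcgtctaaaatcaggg
Cdkn1a: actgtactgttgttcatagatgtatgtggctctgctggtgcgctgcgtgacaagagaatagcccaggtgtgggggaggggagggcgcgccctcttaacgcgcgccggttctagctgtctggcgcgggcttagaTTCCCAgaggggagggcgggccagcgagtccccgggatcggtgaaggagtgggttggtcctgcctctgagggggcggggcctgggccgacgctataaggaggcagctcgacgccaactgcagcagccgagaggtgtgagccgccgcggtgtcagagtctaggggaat

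The values are deposited log2 signals after quantile normalisation, and a signal of 100 (6.6439 on the log2 scale) was taken as background. A probe was tested when the mean of at least 1 group reached background, and a gene was called when a probe differed at least 2-fold with an adjusted p in limma of at most 0.10. Since levels of different probes cannot be set against each other, each probe is compared with itself between groups. The share of probes at a raw signal of 100 or more was 28.14 to 40.08% on the virgin arrays, 35.47 to 48.44% at day 3 and 31.40 to 42.54% at day 7. The sorted cells carried Foxa1 and Pgr of the HR+ luminal list on all arrays, and Esr1 was near background at 6.54 to 7.13. Krt8 and Krt18 of the same list were also present, but as luminal keratins they do not set HR+ apart from HR- luminal cells. The basal marker Krt5, the endothelial marker Cdh5 and the pericyte markers Pdgfrb and Rgs5 were near or under background and not tested, with no value over 6.66. Other markers of these lists were well above it on some or all arrays, Vwf at 9.95 to 12.45, Acta2 at 7.33 to 11.07 and Krt17 at 6.61 to 11.45. Summed signals of the marker lists did move with the groups. They add linear signals, so the brightest markers weigh most, Krt8 and Krt18 (neither called) in the HR+ luminal sum and Mfge8 in the HR- luminal sum. These sums are therefore not a measure of the content of HR+ or HR- cells. The HR+ luminal sum was 34406 to 47794 in virgin, 30990 to 32200 at day 3 and 26514 to 27455 at day 7. The HR- luminal sum was 22631 to 34065, 11380 to 15803 and 19868 to 32398 in the same order. Called markers were Cited1, Foxa1, Pgr, Tnfsf11, Wnt4 and Wnt5a of the HR+ luminal list, Csn2, Csn3, Lcn2, Mfge8, Wap and Wfdc18 of the HR- luminal list, Krt17 and Trp63 of the basal list, Cd74, Lyz1 and Lyz2 of the macrophage list, Vwf of the endothelial list and Dcn of the fibroblast list. Against virgin, Foxa1 was called lower at day 7 (log2 change -1.26) and Pgr at day 3 (-1.18) and day 7 (-1.13). Wnt5a was also lower at both days (-1.25 and -2.70). Called higher were Cited1 at day 3 (1.36), Tnfsf11 at both days (2.25 and 4.04) and Wnt4 at day 7 (1.01).

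The transcripts of the Hes1 and Hey1 targets were lower at day 7 of pregnancy, and that of Hey1 also at day 3, where it was under the 2-fold limit. Hey1 was 1.97-fold lower at day 3 and 2.1-fold lower at day 7 than in virgin, and Hes1 was lower at day 7, by 1.99-fold, with a day 3 level that did not differ beyond the spread. Among the receptors, Notch3 was higher at day 7, by 1.32-fold, and no difference of Notch1, Notch2 or Notch4 passed the test in the reported fit. Of the ligands, Jag1 passed no test, and Jag2 and Dll1 stayed near or below background, as did Rbpj. Of the 10 genes, 7 had a tested probe (7 of 14 probes). The 7 probes that were not tested ranged from 5.99 to 6.76, with 3 of 63 values at background or above.

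**Figure D1:**
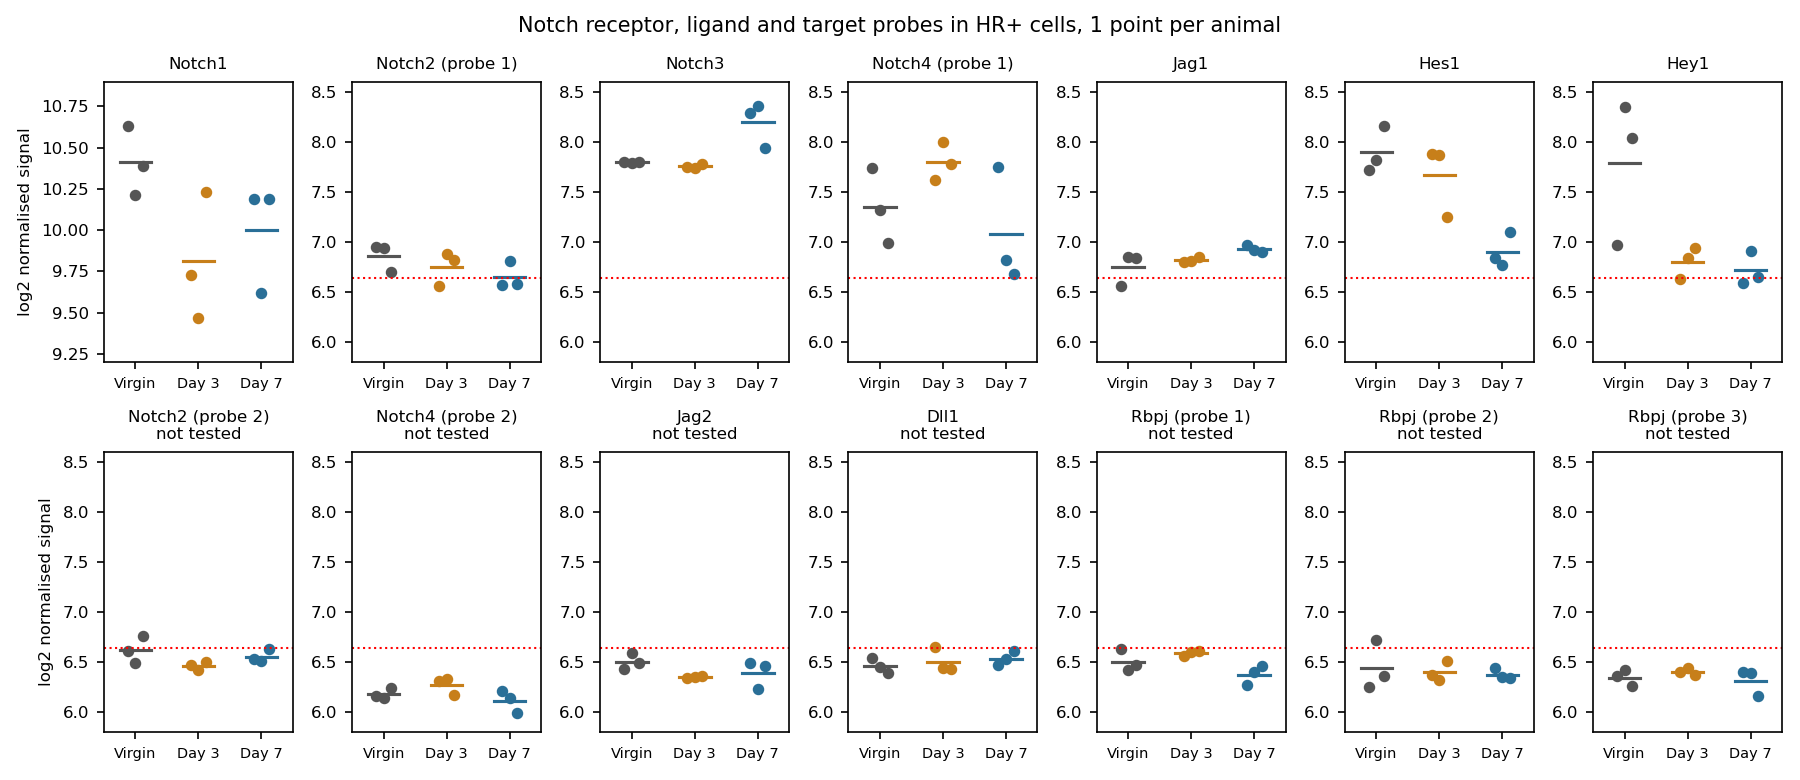
Log2 normalised signal (vertical axis) of the 14 member probes in virgin, day 3 and day 7 animals. Each point is 1 animal, each bar the mean of 3 animals, and the dotted red line the background of 6.6439. The upper row holds the tested probes, with a separate axis range for Notch1, and the lower row the probes not tested. The day 7 points of Hes1 lie below, and those of Notch3 above, all points of the other groups.

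By the rule of at least 2-fold, 0 of the 7 tested members were called at day 3, against 3.15% of the 11261 tested genes called lower and 2.97% called higher. At day 7, 1 was called, Hey1, lower, against 3.86% of genes called lower and 3.71% called higher. Between day 7 and day 3, 0 were called, against 2.29% of genes lower and 2.75% higher. With no minimum fold, 1 member was lower at day 3 (Hey1), against 11.4% of genes lower and 13.8% higher. At day 7, 2 were lower (Hes1 and Hey1) and 1 higher (Notch3), against 13.3% lower and 15.6% higher, and from day 3 to day 7, 1 was lower (Hes1) and 1 higher (Notch3), against 11.6% lower and 10.7% higher. The median log2 change of the tested members was -0.11 at day 3, -0.27 at day 7 and -0.09 between the days, beside -0.01 over all tested genes in each comparison.

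Notch1, the receptor with a well known part in luminal cells, was read by a single probe far above background. Its log2 signal was 10.63, 10.21 and 10.39 in virgin, 9.73, 9.47 and 10.23 at day 3 and 10.19, 9.62 and 10.19 at day 7. The virgin animals were the highest on the whole, day 3 overlapped them through its replicate 3, and day 7 lay below them by a gap of 0.01. The log2 change was -0.60 (SE 0.23, 95% interval -1.11 to -0.08, n = 3 a group) at day 3 and -0.41 (SE 0.23) at day 7, with adjusted p = 0.123 and 0.269 in limma. Neither difference passed the test in this fit. At day 3 Notch1 did reach an adjusted p of 0.10 or less with the replicate number as a block (adjusted p = 0.0454) and with Cyber-T (adjusted p = 0.05). It also did so without day 3 replicate 3 (-0.81, adjusted p = 0.0515) and without day 7 replicate 2 (adjusted p = 0.0887). No alternative was past 2-fold. With median scaling of the raw signal in place of quantile normalisation, the sign turned, to 0.13 at day 3 and 0.22 at day 7.

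Notch3, a receptor known for its part in vascular smooth muscle and pericytes and also found in luminal mammary cells, had a narrow spread before day 7. On the log2 scale it read 7.80, 7.79 and 7.80 in virgin and 7.75, 7.74 and 7.78 at day 3. At day 7 it was 8.29, 8.36 and 7.94. All day 7 animals lay above all others, with replicate 3 the closest to them. The log2 change at day 7 was 0.40 against virgin (SE 0.11, 95% interval 0.14 to 0.66, adjusted p = 0.0426 in limma) and 0.44 against day 3 (adjusted p = 0.0382), under the fold needed for a call. At day 3 the change was -0.04 (adjusted p = 0.867), and under median scaling 0.48 (adjusted p = 0.0365), with 0.88 at day 7. The Notch3 change at day 7 against virgin missed the test with Cyber-T (adjusted p = 0.33), with only the groups compared in the fit (adjusted p = 0.112) and without day 7 replicate 1 (0.36, adjusted p = 0.135) or replicate 2 (0.32, adjusted p = 0.127). The Notch3 change between the days missed it with Cyber-T (adjusted p = 0.146), with median scaling (0.40, adjusted p = 0.13) and without replicate 1 or 2 of day 3 or of day 7 (adjusted p = 0.114 to 0.123). Some markers of other cells moved beside it. The summed signal of the pericyte markers was 682 to 733 in virgin, 700 to 758 at day 3 and 757 to 878 at day 7, with 0 of 5 tested markers called. That of the endothelial markers was 2348 to 3267, 2191 to 2719 and 4809 to 6829. At day 7, 1 of 9 tested endothelial markers was called higher than in virgin, Vwf, beside 3.71% of all tested genes. Vwf was by far the brightest of them (log2 means 10.52 in virgin and 12.07 at day 7) and weighs most in this linear sum. On its tested probe Pecam1 was 6.52 to 6.75 in virgin and 7.14 to 7.80 at day 7, and its other probes were not tested. Kdr was 6.91 to 7.08 and 6.78 to 6.97, and Eng changed by -0.44 at day 7 (adjusted p = 0.0635 in limma). With no minimum fold, 3 of the 9 tested endothelial markers were higher at day 7 and 1 lower, beside 15.6% and 13.3% of all tested genes. Pdgfrb stayed at or below 6.48 and Rgs5 at or below 6.63 on all arrays, under background, and the part of vascular cells in the Notch3 result was not tested.

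Notch4, a receptor best known from endothelial cells and, in mice, as a site of mammary tumour virus insertion, varied widely between animals of a group. Its tested probe read 7.74, 7.32 and 6.99 in virgin, 7.62, 8.00 and 7.78 at day 3 and 7.75, 6.82 and 6.68 at day 7. Day 3 was highest, and replicate 1 of virgin and of day 7 lay among the day 3 animals, so that all groups overlapped. The log2 change was 0.45 (SE 0.29) at day 3, -0.27 at day 7 and -0.72 (SE 0.29, 95% interval -1.38 to -0.07) between the days, with adjusted p = 0.358, 0.572 and 0.153. Without day 7 replicate 1 the last of these was -1.05 (adjusted p = 0.0263), a call that rests on leaving out that animal. The other Notch4 probe was below background on all arrays, at 5.99 to 6.33.

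Notch2, the remaining receptor, lay close to background. Its tested probe read 6.95, 6.94 and 6.70 in virgin, 6.56, 6.88 and 6.82 at day 3 and 6.57, 6.81 and 6.58 at day 7, and all groups overlapped. The changes were -0.11 and -0.21 (95% interval -0.49 to 0.07 at day 7), with adjusted p = 0.629 and 0.299. The other Notch2 probe was not tested and read 6.42 to 6.76.

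Of the ligands, Jag1 alone was tested. It read 6.56, 6.85 and 6.84 in virgin, 6.80, 6.81 and 6.85 at day 3 and 6.97, 6.92 and 6.90 at day 7. Day 7 lay above all other animals, by a gap of 0.05 that is small beside the spread of virgin (SD 0.17). The change at day 7 was 0.18 (95% interval -0.04 to 0.40, adjusted p = 0.259), and at day 3 0.07 (adjusted p = 0.698). Jag2 read 6.43, 6.59 and 6.49 in virgin, 6.34, 6.35 and 6.36 at day 3 and 6.49, 6.23 and 6.46 at day 7, below background on all 9 arrays. Dll1 read 6.39 to 6.54 in virgin, 6.43 to 6.65 at day 3 and 6.47 to 6.61 at day 7, with 1 of 9 values at background or above. For these ligands a difference was not detectable at this signal, and no fold is given.

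Rbpj, the DNA-binding factor on which all receptors converge, was read by 3 probes, none of them tested. They ranged from 6.42 to 6.63, from 6.25 to 6.72 and from 6.26 to 6.42 in virgin, and from 6.27 to 6.46, from 6.34 to 6.44 and from 6.16 to 6.40 at day 7. Of these probes 1 reached background, in 1 virgin animal.

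Hes1 had its lowest signal at day 7 in all animals. Its log2 signal was 7.72, 7.82 and 8.16 in virgin, 7.88, 7.87 and 7.25 at day 3 and 6.84, 6.77 and 7.10 at day 7. The day 7 animals overlapped neither other group, and day 3 replicate 3 stood nearest to them. The means were 7.90 ± 0.23, 7.67 ± 0.36 and 6.90 ± 0.17 (SD, n = 3). Before normalisation the signal was 168.0 to 229.0 in virgin, 154.0 to 361.0 at day 3 and 105.0 to 157.0 at day 7. Against virgin, the log2 change at day 7 was -0.9963 (SE 0.19, 95% interval -1.43 to -0.56, adjusted p = 0.00845 in limma), just short of the 2-fold limit. Against day 3 it was -0.76 (SE 0.19, adjusted p = 0.0346), a 1.69-fold lower level at day 7, and this difference missed the test without day 3 replicate 1 or 2 or day 7 replicate 1 or 2 (-0.73 to -0.66, adjusted p = 0.102 to 0.13). At day 3 the change against virgin was -0.24 (95% interval -0.67 to 0.20, adjusted p = 0.48).

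Hey1 was lower at both days of pregnancy. The log2 signal of Hey1 was 6.97, 8.35 and 8.04 in virgin, 6.63, 6.84 and 6.94 at day 3 and 6.59, 6.91 and 6.65 at day 7. Virgin replicates 2 and 3 stood well above all pregnant animals, while virgin replicate 1 exceeded the highest day 3 animal by 0.03 and the highest day 7 animal by 0.06. The means were 7.79 ± 0.72, 6.81 ± 0.16 and 6.72 ± 0.17 (SD, n = 3), so the pregnant animals lay close to background, with 4 of their 6 values at or above it. The log2 change was -0.98 (SE 0.30, 95% interval -1.67 to -0.29, adjusted p = 0.0635) at day 3 and -1.07 (SE 0.30, 95% interval -1.76 to -0.38, adjusted p = 0.0431) at day 7, with the day 7 difference called. The days themselves did not differ beyond the spread, at -0.09 (95% interval -0.77 to 0.60, adjusted p = 0.925). At day 3 the adjusted p exceeded 0.10 without virgin replicate 2 or 3 or any 1 of the day 3 animals, reaching 0.184, and also with no filter on dim probes (0.117) and with only the groups compared in the fit (0.112). The call at day 7 depended on the animals included. It was lost without virgin replicate 2 (-0.79, adjusted p = 0.106), without virgin replicate 3 (-0.94, adjusted p = 0.122) and without day 7 replicate 1 (-1.0, adjusted p = 0.123), and the change was -1.47 (adjusted p = 0.000754) without virgin replicate 1.

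**Figure D2:**
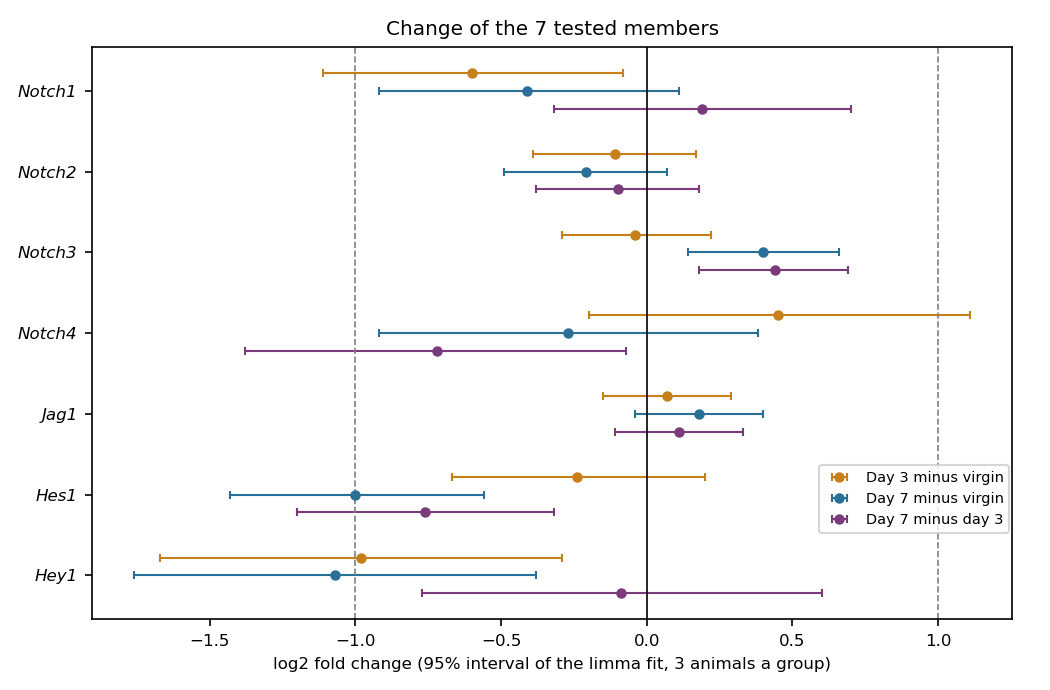
Log2 fold change (horizontal axis) of the 7 tested members in the 3 comparisons. Points are estimates of the limma fit with 3 animals a group, bars are 95% intervals, and dashed lines mark a 2-fold change. The intervals of Hey1 at both days, of Hes1 and Notch3 at day 7 against both other groups, of Notch1 at day 3 and of Notch4 between the days leave out 0.

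Some markers of other cells moved beside the targets too. In the order of virgin replicates 1, 2 and 3, the summed macrophage marker signal was 988, 1416 and 2531, and it was 704 to 769 at day 3 and 1524 to 1940 at day 7. Lyz1, with log2 means of 9.15, 6.92 and 9.82, was the brightest macrophage marker in virgin and at day 7 and weighs most there. Ptprc, Adgre1 and Itgam of the same list stayed at or below 6.69 on all arrays and were not tested. Of 4 tested macrophage markers 3 were called lower at day 3 and 0 at day 7, beside 3.15% and 3.86% of all tested genes. The HR- luminal sum was 30184, 34065 and 22631 in the virgin animals. The basal sum was 1192 to 2143 in virgin, 1795 to 5098 at day 3 and 3635 to 13806 at day 7, with Krt14 at 6.75 to 9.18, 7.24 to 9.77 and 8.76 to 12.87, while Krt5 stayed under background. Elf5, the defining factor of HR- luminal cells, was 6.61 to 7.08 in virgin and 6.61 to 6.92 at day 7, and Kit, a receptor of the same cells, 6.54 to 7.64 and 6.38 to 6.86. The fibroblast sum was 2711 to 3554 in virgin, 2974 to 3567 at day 3 and 1045 to 1282 at day 7. Dcn, with log2 means of 11.31, 11.37 and 9.07, was by far the brightest fibroblast marker and weighs most in that sum. The lymphocyte sum was 518 to 579 over all arrays. The part of these cells in the Hes1 and Hey1 results was not tested.

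Both target results stood near the limits of the rule, so each was followed over 23 alternative settings. Hes1 was lower at day 7 in 23 of 23, with an adjusted p of 0.10 or less in 22, and was called in 8, over a range of -1.18 to -0.66. The exception was median scaling of the raw signal (-0.66, adjusted p = 0.127). Hey1 was lower in 23 of 23, with an adjusted p of 0.10 or less in 19, and was called in 18, over a range of -1.47 to -0.79. Settings that change only the filter, the test or the limits, or leave out a day 3 animal, keep the reported log2 change. The 23 settings are thus not 23 separate checks of direction. The calls of Hes1 include the setting with no minimum fold, which drops the limit that Hes1 missed.

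**Figure D3:**
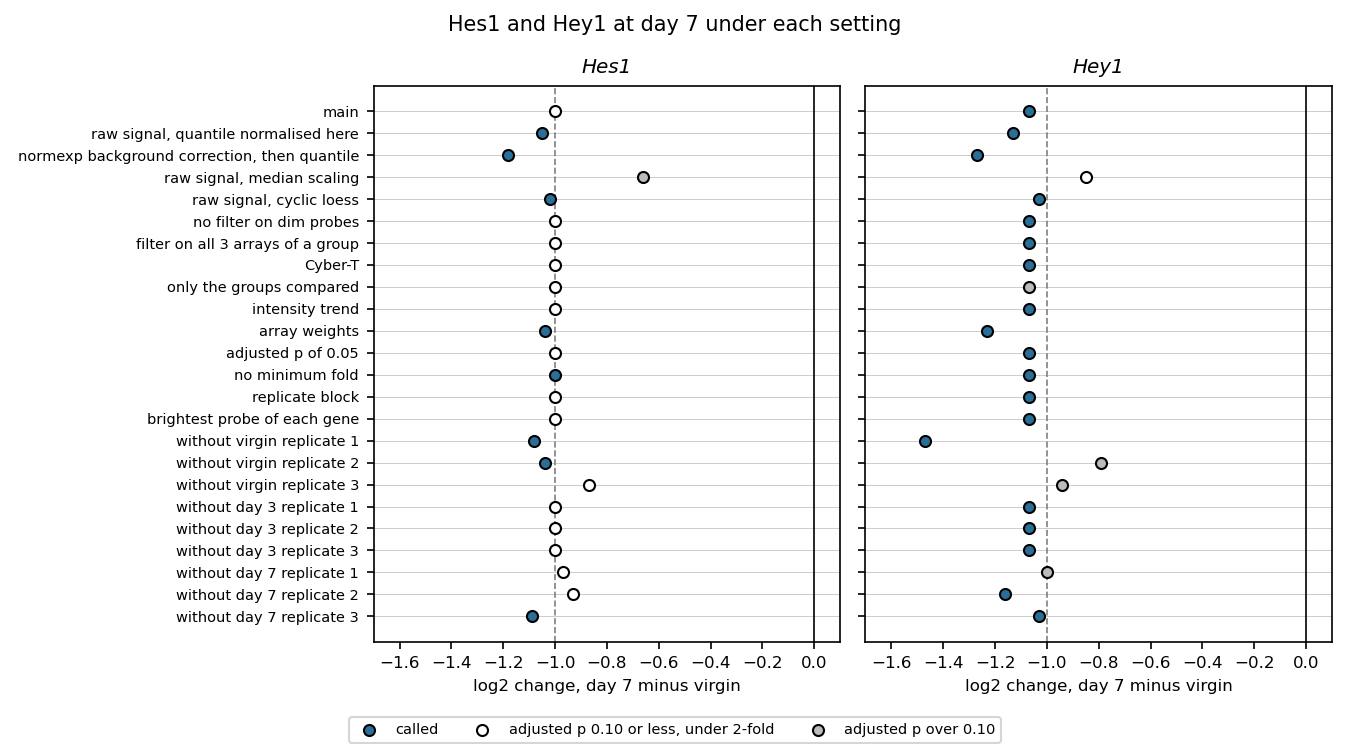
Log2 change of Hes1 and Hey1 at day 7 against virgin (horizontal axis) under the reported setting and 23 alternatives (vertical axis). Filled blue points were called, open points had an adjusted p of 0.10 or less but under 2-fold, and grey points an adjusted p over 0.10. All points lie below 0, Hes1 between -1.18 and -0.66 and Hey1 between -1.47 and -0.79. Settings that change only the filter, the test or the limits share the log2 change of the reported setting.

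The genes with a pattern over the 9 arrays most like that of Hey1 were Zcchc24 (Pearson r = 0.967), Gsdmd (0.966), a pore-forming protein of cell death, and Cd86 (0.964), a co-stimulatory surface protein of antigen-presenting cells. The Cd86 means were 7.52 in virgin, 6.51 at day 3 and 6.47 at day 7. For Hes1, a search added after its values were seen gave Vmp1 (0.971), Atp6v1h (0.97) and Hprt (0.97), with Hprt means of 11.57, 11.49 and 10.75. These correlations describe arrays that share their group differences.

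A wider list of 77 pathway genes outside the members was read in the same way, of which 70 had a probe and 46 were tested. Called were 0 higher and 3 lower at day 3 (Cdkn1a, Maml2 and Sox9), 2 higher (Neurl1a and Hes6) and 5 lower (Bhlhe40, Cdkn1a, Maml2, Runx1 and Sox9) at day 7, and 2 higher (Neurl1a and Tle2) and 1 lower (Sox9) between the days. Over all tested genes 2.97% were called higher and 3.15% lower at day 3, 3.71% and 3.86% at day 7 and 2.75% and 2.29% between the days. With no minimum fold, 3 were higher and 7 lower at day 3, 9 and 6 at day 7 and 6 and 4 between the days, where all tested genes gave 13.8% higher and 11.4% lower, 15.6% and 13.3%, and 10.7% and 11.6%. The median log2 change was 0.00 at day 3, 0.08 at day 7 and 0.02 between the days.

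The largest change of the list on a brightest probe was that of Neurl1a, an E3 ubiquitin ligase whose counterpart in flies promotes uptake of the Notch ligand Delta. The log2 signal of Neurl1a was 8.56, 8.14 and 6.94 in virgin, 7.97, 8.52 and 7.77 at day 3 and 11.04, 10.63 and 10.85 at day 7. All day 7 animals stood far above the others. The change at day 7 was 2.96 (SE 0.38, adjusted p = 0.00115) against virgin and 2.75 (adjusted p = 0.00256) against day 3, and at day 3 it was 0.20 (adjusted p = 0.773). A further Neurl1a probe was below background on all arrays, at 6.30 to 6.51. Of the 11 tested genes for endocytosis and turnover, 1 was called higher at day 7 and 0 lower, beside 3.71% and 3.86% of all tested genes. Mib2, a ligase that acts on ligands, had a change of -0.72 at day 3 (adjusted p = 0.132).

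Maml2, a Mastermind coactivator, was lower at both days. The log2 values of Maml2 were 8.31, 8.73 and 8.94 in virgin, 7.19, 7.39 and 6.90 at day 3 and 6.59, 7.31 and 6.26 at day 7. No pregnant animal reached the lowest virgin animal, and 2 of the 3 day 7 values were under background, so the day 7 change is read against a signal that was not above it in those animals. The change was -1.50 (SE 0.27, adjusted p = 0.00706) at day 3 and -1.94 (SE 0.27, adjusted p = 0.0018) at day 7, and both were called in 23 of 23 alternatives. It was the only one of 4 tested coactivators that was called. Over all tested genes 3.15% were called lower at day 3 and 3.86% at day 7. Ep300, an acetyltransferase, had a change of 0.63 at day 3 (adjusted p = 0.0863).

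Among 10 tested corepressors, Tle2, of the Groucho family that HES proteins recruit, went opposite ways at the 2 days. The log2 values of Tle2 were 8.79, 8.64 and 8.87 in virgin, 7.58, 7.69 and 8.20 at day 3 and 9.74, 9.31 and 9.68 at day 7. The 3 groups did not overlap. The change was -0.94 (adjusted p = 0.00857) at day 3, 0.81 (adjusted p = 0.0146) at day 7 and 1.75 (SE 0.18, adjusted p = 0.000688) between the days, where it was called, and a second probe gave -0.86, 0.81 and 1.67. Under median scaling the day 3 change of Tle2 was -0.38 (adjusted p = 0.187). Its relative Tle1 had a change of 0.72 at day 3 (adjusted p = 0.111). Of all 10 corepressors 4 were higher at day 7 with no minimum fold, and 0 were lower, beside 15.6% and 13.3% of all tested genes.

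Of 10 listed HES and HEY relatives 2 were tested, and they moved apart. Hes6, a family member known to counteract Hes1, read 8.81, 9.38 and 8.66 in virgin, 9.10, 8.96 and 9.69 at day 3 and 9.93, 9.83 and 10.61 at day 7. Day 7 lay above all other animals, with a change of 1.18 (SE 0.28, adjusted p = 0.0201) against virgin, which fell under the 2-fold limit without day 7 replicate 3 (0.93, adjusted p = 0.0512). Bhlhe40, a related repressor that is also part of the circadian clock, read 11.07, 10.76 and 10.91 in virgin, 10.39, 10.22 and 9.73 at day 3 and 9.52, 9.30 and 9.30 at day 7. The groups stepped down with no overlap, by -0.80 (adjusted p = 0.0141) at day 3 and -1.54 (SE 0.17, adjusted p = 0.00051) at day 7, and under median scaling the Bhlhe40 changes were -0.09 (adjusted p = 0.848) and -0.94 (adjusted p = 0.043).

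Of 10 other tested genes known as Notch targets in some tissue, 3 were called lower at day 7 and 0 higher, beside 3.86% and 3.71% of all tested genes. Erbb2, a receptor tyrosine kinase that is named here after its values were seen, was 1.98-fold higher at day 7 (0.98, SE 0.15, adjusted p = 0.00245), just under the 2-fold limit. Sox9, a transcription factor of luminal progenitors, read 14.41, 14.36 and 14.25 in virgin, 13.27, 12.89 and 12.52 at day 3 and 11.26, 11.50 and 12.30 at day 7. The groups did not overlap, and the change was -1.45 (adjusted p = 0.00795) at day 3, -2.66 (SE 0.27, adjusted p = 0.00034) at day 7 and -1.21 (adjusted p = 0.0204) between the days. A second Sox9 probe gave -2.14, -3.22 and -1.07, each of them called. Cdkn1a, the cell cycle inhibitor p21, was lower by the same measure at -1.44 (adjusted p = 0.00398) and -1.53 (adjusted p = 0.00269), with 11.56, 10.60 and 10.73 in virgin against 9.27 to 9.69 in pregnancy. A second Cdkn1a probe was called at both days, and the remaining probe, near background, was not (-0.49 and -0.40). Runx1, a transcription factor, changed by -0.62 (adjusted p = 0.0921) at day 3 and was called at day 7 (-1.37, adjusted p = 0.00302), and under median scaling its changes were -0.07 (adjusted p = 0.84) and -0.98 (adjusted p = 0.00676).

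The remaining roles held no called gene. Of 8 tested genes for receptor processing, 0 were called, beside 2.29% to 3.86% of all tested genes per direction and comparison. Psen2, a catalytic subunit of gamma-secretase, had a change of -0.69 (SE 0.15, adjusted p = 0.0174) at day 3, under the 2-fold limit, and -0.12 (adjusted p = 0.699) there under median scaling. Adam17, a protease that can cut receptors, had one of -0.62 (adjusted p = 0.161) at day 7. Of 2 tested genes for receptor glycosylation, the fringe enzyme Mfng had a change of 0.55 (adjusted p = 0.0369) at day 3 and Poglut1, which adds glucose, one of 0.53 (adjusted p = 0.303). The 5 other ligands listed had 4 genes with a probe, of which 0 were tested.

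**Figure D4:**
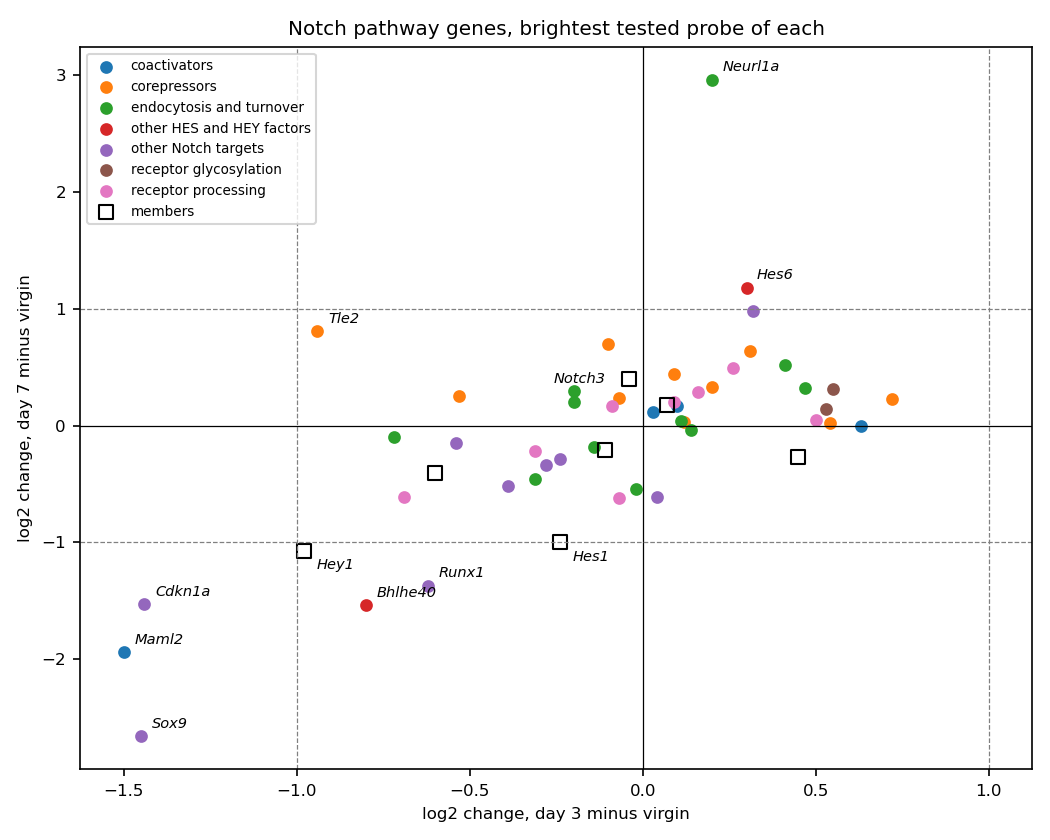
Log2 change at day 3 (horizontal axis) and at day 7 (vertical axis) against virgin for the 46 tested pathway genes, coloured by role, and the 7 tested members (open squares), each on its brightest tested probe with 3 animals a group. Dashed lines mark a 2-fold change, and named circles are genes called in at least 1 comparison. Neurl1a stands alone at 2.96 at day 7, and Sox9, Maml2 and Cdkn1a lie low on both axes. The axes share the virgin animals.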

How the data were processed

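Sorted HR+ cells of 9 mice were measured on Illumina mouse bead arrays, 1 array per animal. The authors deposited raw intensity values per probe and a table of log2 values, which they quantile normalised in Partek Genomics Suite 6.6. The log2 table was analysed here. Quantile normalisation of the raw intensity gave values within 0.0238 on average. The columns for the detection p-value hold no values and were not used. Of 45281 probes, 34885 had a single symbol, 18 several and 10378 none.

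All 9 arrays entered a linear model of 3 groups in limma 3.58.1 (R 4.3.3) over 18707 probes whose mean reached a signal of 100 in at least 1 group, 2802 of them without a name, with Benjamini-Hochberg adjustment over all of them. The limits of 2-fold and 0.10 follow the study's methods, which used Cyber-T. It was run as an alternative (window of 101 probes, confidence 10) among 23 settings. The fit was tested on simulated data. Genes are given by the brightest of their probes.

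Members and lists were chosen with earlier results of these data known. The text names all members, pathway genes called in any comparison, the 2 tested genes with the largest change in each role, defining and called markers, and the 3 genes most like a called member. Replicates are separate animals. Exact permutation of 3 against 3 animals cannot go below p = 0.10. Python 3.11.15 and matplotlib 3.10.9 were used for the figures.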

Additional observations from a re-analysis of the deposited data

Results flagged for a closer look

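Among the members and the named pathway genes, 10 had effects at the 2 days of pregnancy that differed. Each had an adjusted p of 0.10 or less in the limma test of day 7 against day 3. Markers were not part of this count. The log2 change from day 3 to day 7 was -0.76 for Hes1 (adjusted p = 0.0346) and 0.44 for Notch3 (adjusted p = 0.0382). Higher at day 7 than at day 3 were also Neurl1a (2.75, adjusted p = 0.00256), Tle2 (1.75, adjusted p = 0.000688), Hes6 (0.87, adjusted p = 0.0773) and Erbb2 (0.66, adjusted p = 0.0197). Lower were Sox9 (-1.21, adjusted p = 0.0204), Runx1 (-0.75, adjusted p = 0.0519), Bhlhe40 (-0.74, adjusted p = 0.0227) and Ep300 (-0.63, adjusted p = 0.0975). Over all tested genes 10.7% were higher and 11.6% lower by the same test. The pathway genes were named because they were called, changed most or were seen to change. Their count can therefore not be set beside these shares. In all 10 the groups at day 3 and day 7 did not overlap. As the 10 were picked by that same comparison, the lack of overlap is no further evidence.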

How the results depend on the processing

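Of 1242 values recomputed for 54 results under 23 alternatives, 8 changed sign and 1234 did not. The filter, the test, a replicate block and the limits cannot move a log2 change, nor can leaving out an animal from outside the comparison. Signs under those settings were fixed in advance and say nothing about stability. Under median scaling of the raw signal Notch1 turned to 0.13 at day 3 and 0.22 at day 7, Hes1 to 0.29 at day 3, Notch3 to 0.48 at day 3 and Notch4 to 0.03 at day 7. Jag1 at day 3 turned to -0.03 without virgin replicate 1, within a range of -0.03 to 0.12 over the animals left out, and Neurl1a at day 3 to -0.27 without virgin replicate 3 and -0.02 without day 3 replicate 2, within -0.27 to 0.54. Median scaling moved the median of all tested probes by 0.209 at day 3 and 0.179 at day 7, with 2059 probes called higher and 124 lower at day 3 (419 and 455 as reported) and 1771 and 228 at day 7 (541 and 559). Bhlhe40 and Runx1 at day 7 lost their calls under it. On its brightest probe Sox9 also lost its call under it at day 3, as did Cdkn1a at both days, while each stayed called by another probe, and Sox9 between the days lost its call without day 7 replicate 1 (-0.99). The cause was not tested.

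Members called at day 3 went from 0 to 1 (Hey1) with the raw signal quantile normalised here, with normexp, with array weights and with no minimum fold. At day 7 they went from 1 to 2 (Hes1 and Hey1) with the first 3 of these and with cyclic loess, to 3 with no minimum fold, and to 0 with median scaling and with only the groups compared in the fit. Between the days they went from 0 to 2 with no minimum fold. Leaving out 1 animal gave 0 to 1 at day 3, 0 to 2 at day 7 and 0 to 1 between the days. Pathway genes called went from 3 to 9 at day 3 with median scaling and, with no minimum fold, to 10 at day 3, 15 at day 7 and 10 between the days.

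The replicate numbers only name animals: deviations of same-numbered animals correlated at -0.053 to 0.073. With the number as a replicate block the changes of Hes1 and Hey1 at day 7 kept their size, with an adjusted p of 0.0247 for each (-1.07 for Hey1), and no count of member or pathway calls changed, while Notch1 at day 3, still at -0.60, had an adjusted p of 0.0454. Signal limits the dim members, of which Jag2, Dll1 and Rbpj had no tested probe.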
